A study of Homo sapiens with 21 samples.

Results

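Retinoic acid signaling was followed through human cardiomyocyte differentiation in 9 genes, chosen by name: ALDH1A2, CYP26A1, RARA, RARB, RARG, CRABP1, CRABP2, DHRS3 and STRA6. The files list a transcript only where it differed between groups at a q-value of up to 0.05. Of the 115 transcripts annotated for the 9 genes in GENCODE release 44, 19 were listed in at least 1 of 6 comparisons, among 21537 transcripts listed in the whole series, and 8 of the 9 genes had a listed transcript. ALDH1A2 was listed in none of the comparisons.

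The cells were PGP1, an established line of human induced pluripotent stem cells. Wild-type PGP1 cells were sampled at 5 stages. These were the undifferentiated iPSC, then mesoderm (M) and its cardiac derivative, cardiac mesoderm (CMes), after which came progenitors of the heart (CP) and, last, cardiomyocytes (CM). The remaining 2 groups were CMs of the lines UBE2B-/-1 and UBE2B-/-2, which lack UBE2B, an enzyme that helps to attach ubiquitin to histone H2B. Each group had 3 libraries, giving 15 wild-type and 6 mutant libraries of poly-A-selected RNA. Differentiation was started by Wnt activation with CHIR99021, followed by Wnt inhibition with IWP4, in medium with B-27, a supplement whose standard form holds retinyl acetate. The mutant lines were made by Cas9 editing in separate experiments and grown from picked colonies, so each line represents 1 clone. CMs were selected with lactate once wells beat, and the mutant CMs came from wells that did beat. More cells were plated before differentiation for the mutants than for wild type, so plating number and genotype cannot be told apart. Replicates were plates that started differentiation at different times.

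The 6 comparisons were the 4 transitions between neighboring stages and each mutant line against wild-type CMs. A transcript was called when its q-value was at most 0.05 and its absolute change on the natural-log scale was at least log2(1.5), a 1.79-fold change. All p- and q-values come from the Wald test of the Sleuth program, as deposited. Levels are geometric means over 3 libraries of normalized estimated counts with 0.5 added, so a level of 0.5 means that every library was at 0. They were recovered from the fitted values. Values of single libraries were not analysed here, so the spread between replicates is given as the residual SD of the fit or as the standard error (SE) of the change. A transcript that is not listed in a comparison did not pass the q-value limit or was not tested, and its level there is unknown.

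Retinol enters cells through the receptor STRA6, is oxidized to retinal, and retinal is oxidized to retinoic acid, mainly by ALDH1A2 in the early embryo. DHRS3 reduces retinal back to retinol, and CYP26A1 oxidizes retinoic acid for removal. CRABP1 and CRABP2 carry retinoic acid in the cytoplasm, and the nuclear receptors RARA, RARB and RARG bind it and regulate genes from paired half-sites in DNA. In the developing heart, retinoic acid patterns the posterior field and favors atrial over ventricular identity. RARB and CYP26A1 are textbook examples of genes that retinoic acid itself induces.

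The upstream sequences of these 2 genes are shown because they held the motif that was searched for in promoters. The motif searched was a direct repeat of 2 half-sites spaced by 5 bases, where a half-site was the consensus AGGTCA or a variant, either AGTTCA (held by both genes), or GGTTCA (held by RARB), or else GGGTCA. It was searched on both strands of windows of 300 bases around RefSeq start sites. It was in 31 of 35116 windows (0.0883%), and in 2 of the 22 windows of the members, 1 at RARB and 1 at CYP26A1. Searching spacings of 1, 2 and 5 bases found 91 windows (0.259%) and the same 2 windows among the members. The 250 bases before the start are printed 5′ to 3′ on the plus strand of GRCh38.p14, from RefSeq, with the match in capitals. The RARB sequence, chr3:25428013-25428262, ends at the start of ENST00000330688.9, the listed RARB transcript, and its match ends 36 bases before that start. The CYP26A1 sequence, chr10:93073643-93073892, ends at the start of ENST00000224356.5, and its match lies on the minus strand, 73 bases before the start.
RARB: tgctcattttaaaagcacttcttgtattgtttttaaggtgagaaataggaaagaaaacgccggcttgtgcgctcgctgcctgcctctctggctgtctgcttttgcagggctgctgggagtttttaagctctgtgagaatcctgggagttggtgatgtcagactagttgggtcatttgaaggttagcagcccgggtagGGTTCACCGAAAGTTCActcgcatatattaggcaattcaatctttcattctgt
CYP26A1: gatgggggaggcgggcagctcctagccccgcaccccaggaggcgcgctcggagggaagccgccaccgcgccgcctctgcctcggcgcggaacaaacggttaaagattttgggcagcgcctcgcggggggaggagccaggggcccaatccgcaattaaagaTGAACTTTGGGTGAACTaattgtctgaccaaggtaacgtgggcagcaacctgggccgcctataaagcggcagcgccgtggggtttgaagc
Read along their own strands, the matches are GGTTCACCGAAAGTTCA at RARB and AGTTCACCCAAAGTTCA at CYP26A1. Both matches are made of variants only, and neither holds the consensus AGGTCA. Finding these 2 genes thus depended on the variants allowed, and the search is no test of them. These are matches of letters, and binding at them was not measured in the data used here.

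Among the members, 2 transcripts were called higher and 1 lower from iPSC to M, against 1.24% and 1.62% of all 68446 tested transcripts. From M to CMes, 11 were higher and 0 lower (3.81% and 2.65% of 70285). From CMes to CP, 2 were higher and 8 lower (3.8% and 2.63% of 71328). From CP to CM, 7 were higher and 6 lower (8.25% and 6.99% of 69937). As shares of the 115 annotated transcripts, which include any that were not tested, the 11 higher at CMes were 9.57% and the 8 lower at CP were 6.96%, both above the background. The 7 and 6 called from CP to CM were 6.09% and 5.22%, smaller numbers than the background. Untested transcripts among the 115 can only lower the member shares, so whether the members lay below the background is unknown. Among the calls at CMes and CP, 6 of the 11 and 5 of the 8 are overlapping transcripts of CYP26A1, which share reads and are not independent. Counted as genes, 5 rose from M to CMes and 4 fell from CMes to CP.

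**Figure D1:**
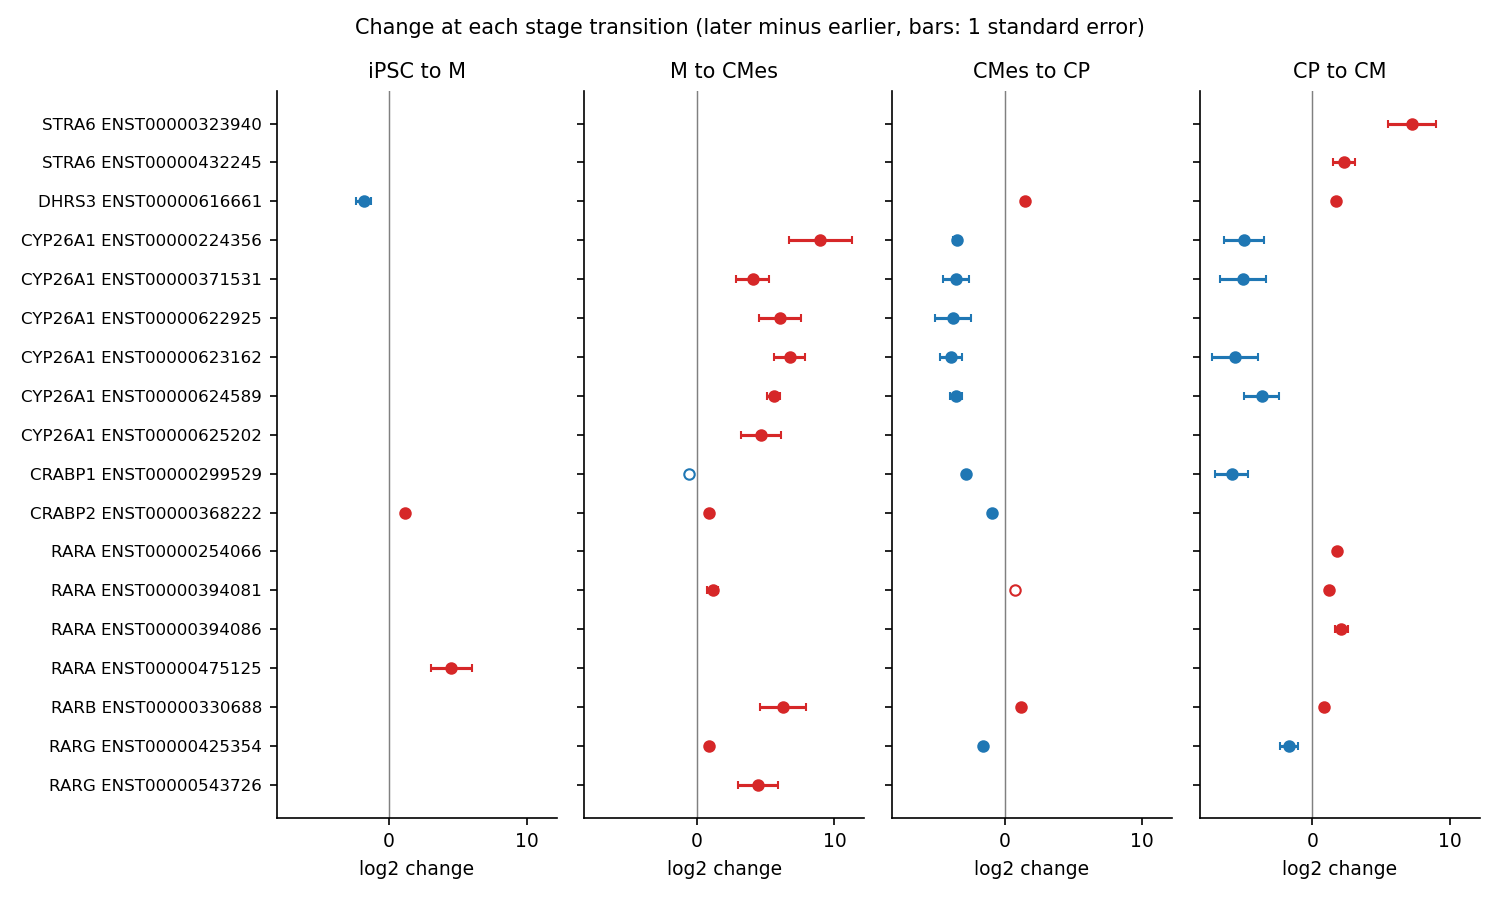
Log2 change of each listed member transcript (rows) at the 4 stage transitions (panels), later stage minus earlier, with bars of 1 SE. Red marks an increase and blue a decrease, filled points were called, open points were listed but under the fold limit, and an empty place means not listed. The CYP26A1 rows are all above 0 from M to CMes and below 0 in the next transition.

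CYP26A1 (chromosome 10), which clears retinoic acid, had the most listed transcripts. All 6 of its annotated transcripts rose from M to CMes. ENST00000624589.3, annotated as a target of nonsense-mediated decay and the one with the highest mean, went from a level of 43.8 in M to 2087 in CMes, a log2 change of 5.57 (SE 0.48, q = 1.93e-28). The full-length coding transcript ENST00000224356.5, which starts at chr10:93073893 and ends at 93077885, went from 2.41 to 1208, a log2 change of 8.97 with an SE of 2.28. Its residual SD was 2.79 on the log2 scale, so libraries of the same stage differed several-fold. ENST00000622925.1, annotated as a retained-intron transcript, was at 0 in all M libraries and at 33.6 in CMes. That is at least 11.0-fold higher against a floor of 3 counts per library. The other retained-intron transcripts, ENST00000623162.1 and ENST00000625202.1, rose by 6.76 (SE 1.13) and 4.66 (SE 1.46).

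The same gene fell at both later transitions. From CMes to CP, 5 transcripts fell, by log2 values with a narrow range: ENST00000624589.3 changed by -3.53 (SE 0.41) and ENST00000224356.5 by -3.44 (SE 0.27), the latter from 1216 to 112. From CP to CM, 4 fell, and ENST00000224356.5 went from 99.0 to 3.13, a change of -4.99 (SE 1.45, q = 0.00503). ENST00000371531.5 reached 0 in every CM library from 16.3 in CP, at least 5.25-fold lower. From M to CM, the stages with a known level, CYP26A1 was highest in CMes, as shown in the plot of levels by stage. How the reads were divided among the 6 transcripts is uncertain, since they overlap each other. At least 462 exon bases of ENST00000224356.5 also belong to a gene on the same strand, ENSG00000285846. The sum over the listed transcripts changed by 5.98, -3.55 and -4.20 on the log2 scale at the 3 transitions.

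**Figure D2:**
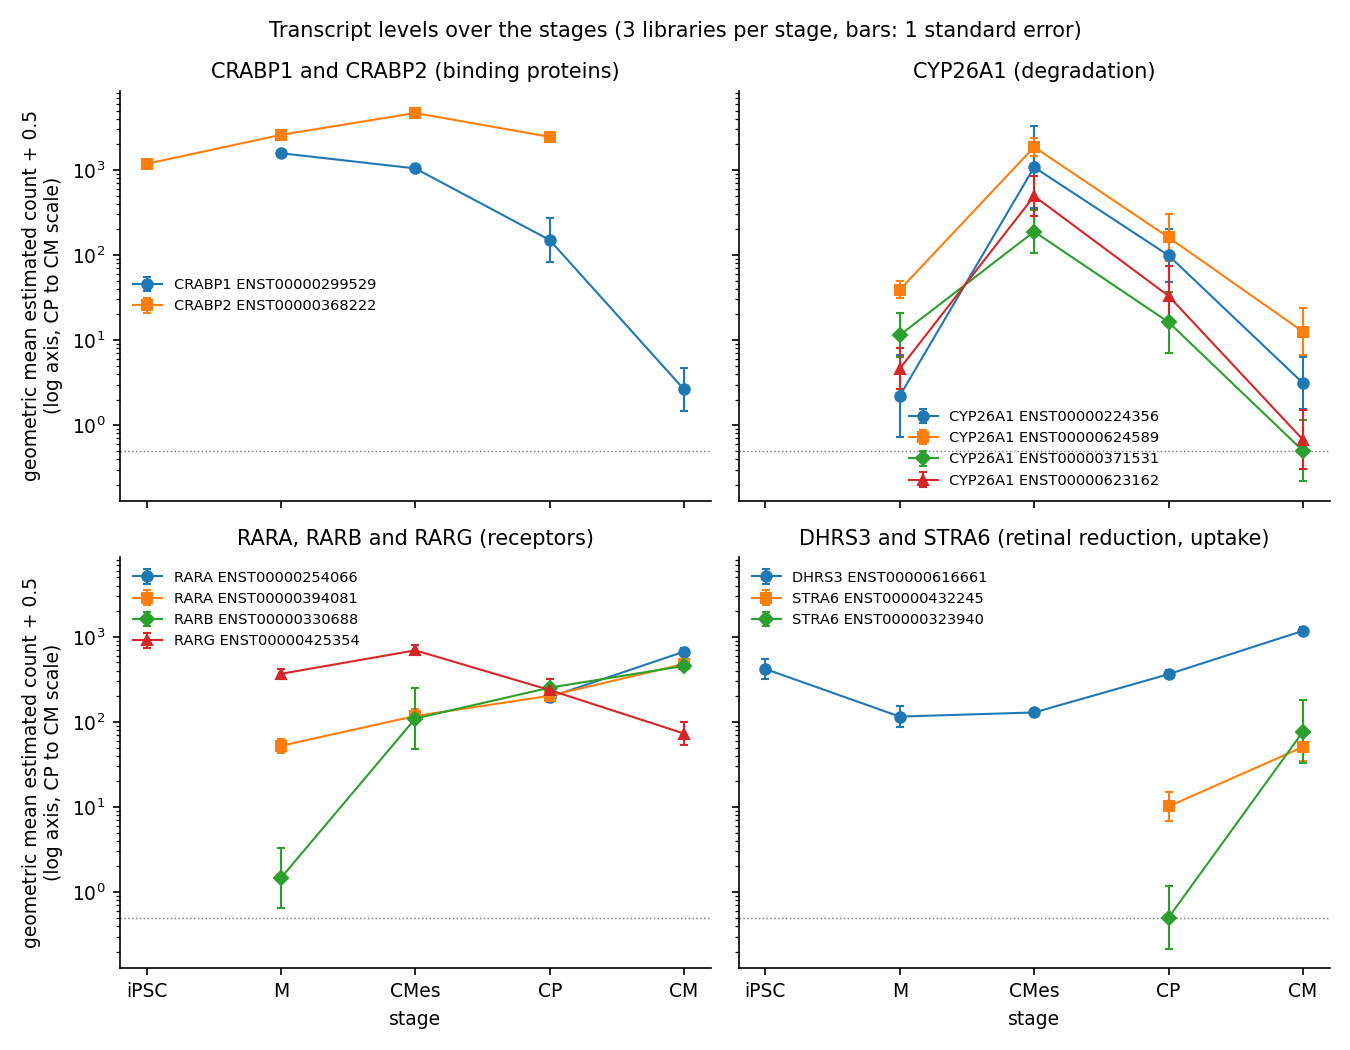
Levels of the main member transcripts at the 5 stages on a log axis, as geometric means of estimated counts plus 0.5 on the scale of the CP to CM comparison, each from 3 libraries, with bars of 1 SE. The dotted line at 0.5 marks 0 counts, and a missing point means that the transcript was not listed around that stage. Of the stages with a point, CYP26A1 is highest in CMes, RARG and CRABP1 are lowest in CM, and RARA, RARB and DHRS3 are highest in CM.

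The binding proteins differed in course. CRABP2, which delivers retinoic acid to the nucleus, had the highest level per length among the listed members from iPSC to CP. Its transcript ENST00000368222.8 had a level of 1238 in iPSC and 2712 in M, a log2 change of 1.13 (SE 0.11). It rose again to CMes, by 0.85 (SE 0.16), and changed by -0.93 (SE 0.21) to CP, from 5278 to 2768. It was not listed from CP to CM. CRABP1, whose product binds retinoic acid in the cytoplasm, was listed at the 3 transitions from M onward and rose at none of them. Its transcript ENST00000299529.7 differed by -0.59 (SE 0.12) from M to CMes, which is under the fold limit, then changed by -2.80 (SE 0.14) from 1177 to 169, and by -5.84 (SE 1.20) from 150 in CP to 2.63 in CM. Residual SDs were 0.11 at the transition to CP and 1.47 at that to CM, where counts were low.

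DHRS3, the retinal reductase, had the only member transcript with a level at all 5 stages. On the scale of the CP to CM comparison, ENST00000616661.5 stood at 420 in iPSC, 116 in M, 129 in CMes, 364 in CP and 1177 in CM. The fall to M (-1.86, SE 0.57, q = 0.0282) and the rises to CP (1.49, SE 0.20) and CM (1.69, SE 0.21) were called, while M and CMes were not listed as different. CM exceeded iPSC by 1.49 on the log2 scale, a difference that no deposited test covers. STRA6, the retinol uptake receptor, was listed at the last transition, where 2 transcripts rose. ENST00000432245.6 went from 10.2 to 50.7, a log2 change of 2.32 (SE 0.80). ENST00000323940.9 was at 0 in all CP libraries and at 76.6 in CM, at least 25.4-fold higher. The reference coding transcript, ENST00000395105.9, was not listed at this transition. In wild-type CMs it stood at 431 or 499, the 2 values that the fit with the mutant lines allows. Its exons overlap CCDC33 on the opposite strand by at least 75 bases.

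The 3 receptors followed different courses. RARB, through the transcript that starts beside the repeat printed above, rose at each transition from M on. Its level was 1.58 in M and 123 in CMes, a log2 change of 6.28 (SE 1.67) with a residual SD of 2.04. It then rose by 1.21 (SE 0.22) to CP and by 0.85 (SE 0.19) to CM, from 253 to 456. Libraries varied less at these later steps, with residual SDs of 0.22 for both.

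RARA rose as well, through several transcripts. ENST00000394081.7 rose from M to CMes by 1.17 (SE 0.40) and from CP to CM by 1.24 (SE 0.27), and differed by 0.79 (SE 0.24) from CMes to CP, under the fold limit. In the step to CM, ENST00000254066.10 rose by 1.78 (SE 0.20), from 196 to 671, and ENST00000394086.7 by 2.10 (SE 0.47). The short coding transcript ENST00000475125.1 rose from 1.37 in iPSC to 31.3 in M, with a q-value of 0.0478 and a residual SD of 1.81, the least certain of the RARA calls. Exons of ENST00000394081.7 and ENST00000394086.7 overlap RARA-AS1 on the opposite strand by at least 328 and 228 bases. All 4 listed RARA transcripts overlap ENSG00000278918 on that strand by at least 149 bases. Reads could thus be shared if strand was not used.

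RARG ran the other way after CMes. ENST00000425354.7 went from 413 in M to 779 in CMes (0.92, SE 0.28), then fell, changing by -1.55 (SE 0.20) to CP and by -1.70 (SE 0.63) to CM, from 237 to 73.0. A shorter transcript, ENST00000543726.1, rose from 1.28 in M to 27.3 in CMes (4.42, SE 1.46). Per kilobase of transcript on the CP to CM scale, the level of RARG ENST00000425354.7 was 238 in CMes, against 51.4 for RARA ENST00000394081.7 and 35.0 for RARB. In CM RARG was lowest of the 3 at 25.0, against 146 for RARB, and 205, 210 and 123 for the RARA transcripts ENST00000254066.10, ENST00000394081.7 and ENST00000394086.7. In CP, RARG at 81.3, RARB at 80.8 and RARA ENST00000394081.7 at 88.9 lay within their errors, while the RARA transcripts ENST00000254066.10 and ENST00000394086.7 were lower, at 59.8 and 28.7. These orders are descriptions without a test between genes.

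Per kilobase in CMes, CRABP2 was highest of the listed transcripts at 4799, followed by CRABP1 at 1412 and CYP26A1 ENST00000624589.3 at 1278. CRABP1 and CYP26A1 lay within 1 SE of each other. In CM, DHRS3 was highest of the listed transcripts at 535. CRABP1 was at 3.56 and CYP26A1 ENST00000624589.3 at 8.63 there.

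Markers of other cell types moved at the same transitions. Endoderm and liver markers were higher for 6 of 9 genes from M to CMes, and for 6 of 9, with 1 lower, from CMes to CP. In the step to CM 7 of 9 were lower. The summed level of those listed went from 3051 in CMes to 30263 in CP, and from 21119 in CP to 1023 in CM in the next comparison, which lists other genes. Epicardial markers were higher for 5 of 7 genes from CMes to CP, with summed levels of 109.95 and 1949, and lower for 3 of 7 from CP to CM. The WT1 transcript counted, ENST00000332351.8, was at 0 in every CMes library. Mesoderm markers were lower for 5 of 5 genes from CMes to CP, with summed levels of 3644 and 187, and TBXT ENST00000366871.7 was at 0 in every CP library. Pluripotency markers were lower for 5 of 6 genes at that transition, with summed levels of 23269 and 5473, and again for 5 of 6 in the step to CM, from 36700 to 590. The sum of 36700 includes LIN28A, at 32426 in CP, which was not listed from CMes to CP. POU5F1 ENST00000437747.6 was at 0 in CM. Smooth muscle and fibroblast markers were higher for 3 of 7 genes in CP than in CMes, from 480 to 11550, and in CM 5 were higher and 1 lower. Neural and endothelial markers were lower for 2 of 5 and 1 of 6 genes in CP than in CMes. All 10 cardiomyocyte markers were higher in CM than in CP. In these bulk samples, fewer cells of a type and less RNA per cell cannot be told apart, and the part of these cell types in the changes of the members was not tested.

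In UBE2B-/- CMs, every called member transcript was higher than in wild type. Line 1 had 4 called higher and 0 lower (background 2.18% and 1.72% of 65457 tested transcripts), and line 2 also had 4 and 0 (2.46% and 1.53%). Each 4 are 3.48% of the annotated member transcripts. In each line, 2 of the 4 are RARG transcripts that overlap in position, so the calls are not independent. With so few calls, nothing particular to the members is read from these counts. In both lines, 3 transcripts of 2 genes, CRABP1 and RARG, were higher and 0 lower (1.52% and 0.909% of all transcripts tested). Both lines were compared with the same 3 wild-type libraries, so the 2 comparisons are not independent. The targeted gene itself was listed for line 1, where UBE2B transcript ENST00000499038.2 had a log2 change of -1.91 (SE 0.53), and not for line 2. An edit that stops the protein need not lower the RNA.

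CRABP1 was near 0 in wild-type CMs and not in the mutants. Its level was 2.87 in wild-type CMs, 163 in UBE2B-/-1 and 100.2 in UBE2B-/-2. The log2 changes were 5.83 (q = 0.0123) and 5.13 (q = 0.0368), each with an SE of 1.62, and their mean was 5.48 (SE 1.40, q = 0.00351). The residual SD of 1.98 shows that libraries of 1 group differed widely. Exons of this CRABP1 transcript overlap ENSG00000279694 on the opposite strand by at least 179 bases, so reads could be shared if strand was not used.

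RARG was higher through both of its listed transcripts, which overlap in position and may share reads. ENST00000425354.7 had a smaller change and a smaller error than CRABP1. It stood at 84.2 in wild-type CMs, at 363 in UBE2B-/-1 and at 312 in UBE2B-/-2, log2 changes of 2.11 and 1.89 (SE 0.56) with a mean of 2.00 (SE 0.49, q = 0.00181). ENST00000543726.1 was at 0 in every wild-type library and at 18.1 and 20.5 in the lines, at least 5.85-fold and 6.65-fold higher. Its log2 changes of 5.17 and 5.35 (SE 1.66) depend on the added 0.5.

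**Figure D3:**
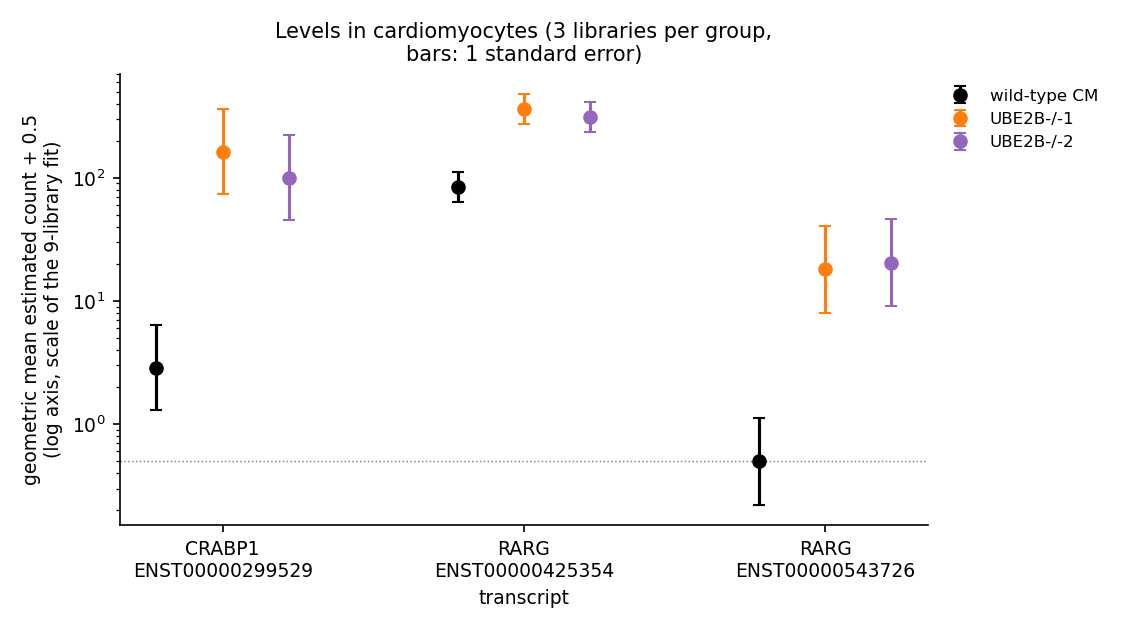
Levels of the 3 member transcripts called in both UBE2B-/- lines, as geometric means of estimated counts plus 0.5 on a log axis, in wild-type CMs (black), UBE2B-/-1 (orange) and UBE2B-/-2 (purple), 3 libraries each, with bars of 1 SE. The dotted line marks 0 counts. Both mutant points lie above the wild-type point for each transcript.

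For the 3 transcripts called in both lines, no difference between the lines was detectable, though the intervals are wide. Line 1 exceeded line 2 by 0.70 on the log2 scale for CRABP1 (95% interval -2.47 to 3.87), by 0.22 for RARG ENST00000425354.7 (-0.89 to 1.32) and by -0.18 for ENST00000543726.1 (-3.44 to 3.08). Each had an adjusted p of 0.99989 over the 1992 transcripts listed for both lines, from a normal test of the difference in the fit of 9 libraries. These transcripts had passed in both lines, so the family was chosen for changes in each and says little on how often the lines differ.

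CYP26A1 and STRA6 were called in 1 line each. CYP26A1 ENST00000224356.5 was higher in UBE2B-/-1 by 5.00 on the log2 scale (SE 1.41, q = 0.0148). The variance columns of the fit give its change in UBE2B-/-2 as either 2.22 or 2.78, with unadjusted p-values of 0.117 and 0.0493, both higher than wild type. STRA6 ENST00000395105.9, the reference coding transcript, was 2.83-fold higher in UBE2B-/-2 (SE 0.45 on the log2 scale, q = 0.0243), and its log2 change in UBE2B-/-1 was 0.44 or 1.07. The difference of line 1 minus line 2 was then 2.78 (95% interval 0.01 to 5.55) or 2.22 (-0.55 to 4.99) for CYP26A1. For STRA6 it was -1.07 (-1.95 to -0.18) or -0.44 (-1.32 to 0.44). Which value of each pair holds is not known, and the intervals, from the normal distribution, are not adjusted for the number of transcripts, so whether the lines differ in these genes is undecided. CRABP2, DHRS3, RARA, RARB and ALDH1A2 were listed for neither line.

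The 3 genes that fell from CP to CM and were listed for a line can be set beside their CP level on the scale of the mutant fit. CRABP1 was at 173 in wild-type CP, and the mutant CMs were at 163 and 100.2. RARG ENST00000425354.7 was at 274 in CP and at 363 and 312 in the mutant CMs. CYP26A1 ENST00000224356.5 was at 114 in CP, while UBE2B-/-1 CMs were at 109 or 124 and UBE2B-/-2 CMs, correspondingly, at 23.5 or 18.1. No test of mutant CM against CP was made, and both comparisons share the wild-type CM libraries, whose low values enter each.

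Other markers differed in the mutant lines as well. Cardiomyocyte markers were lower for 6 of 10 genes in line 1 and for 8 of 10 in line 2, TNNT2 with log2 changes of -1.48 and -1.77 (SE 0.42). Some of these calls rest on minor transcripts. MYL7 was called in line 1 through ENST00000431007.1, at 487 in wild-type CMs, while ENST00000223364.7 stood at 79958 in CM in the CP to CM comparison. TNNI1 was called through ENST00000555948.5, at 3264 in wild-type CMs, against 27322 for ENST00000336092.8 in that comparison. Epicardial markers were higher for 2 of 7 genes in each line, TCF21 and SEMA3D, and endoderm markers for 2 and 1 of 9. TCF21 was called through ENST00000367882.4 in line 1 and ENST00000237316.3 in line 2. The endoderm marker FOXA1 was called in both lines through ENST00000545425.2, at 0 in wild-type CMs. Its transcript ENST00000250448.3 stood at 162 in CM in the CP to CM comparison. Of the smooth muscle and fibroblast list, DCN was higher in both lines, from a level of 7.16 to 637 and 1804, and CNN1 was lower in both. DCN and CNN1 were picked out after their values were seen. The part of these cells in the higher CRABP1 and RARG levels was not tested.

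A wider list of 55 genes that handle retinoids or respond to them, with 1 transcript per gene, gave the setting. Beside each count of the list stands the share called over all transcripts tested, which is not a share of genes, so nothing particular to the list is read from the counts. From iPSC to M, 6 were called higher and 0 lower (1.24% and 1.62% of all transcripts tested). Targets made up 5 of the 6, among them CDX2, which rose by 7.92 (SE 0.67), and CDX1, which rose by 7.64 (SE 1.00).

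From M to CMes 8 were higher and 9 lower (3.81% and 2.65%). The 3 listed genes of retinol storage and transport were lower, among them LRAT, which esterifies retinol for storage, by -3.21 (SE 0.73). RXRA, the partner receptor of the RARs, rose by 1.19 (SE 0.13), from 875 to 1995. Among targets, MEIS1 and MEIS2 rose and CDX1 and CDX2 fell, CDX2 from 689 to 7.42.

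From CMes to CP 18 were higher and 3 lower (3.8% and 2.63%), and 12 of the 23 targets were among the higher and 1 among the lower. HOXB4 rose by 5.24 (SE 0.46), HOXB5 by 4.91 (SE 0.44), HOXB2 by 3.46 (SE 0.39) and NR2F2, an atrial factor, by 4.92 (SE 0.45). Their levels in CMes lay between 8.73 for HOXB5 and 86.7 for HOXB2. ALDH1A1, which can make retinoic acid from retinal, rose from 20.3 to 1031 (5.67, SE 0.27). TTR, the carrier of retinol binding protein in blood, rose from 10.5 to 16367, and it is also 1 of the 6 endoderm markers that rose there. The target RET fell, and so did FABP5, another carrier of retinoic acid, with a log2 change of -2.01 (SE 0.20).

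From CP to CM 12 were higher and 13 lower (8.25% and 6.99%), and the targets were 3 higher and 9 lower. HOXB2 changed by -2.42 (SE 0.22), HOXB4 by -2.13 (SE 0.31) and RARRES2 by -9.83 (SE 1.38), while MEIS2 rose by 2.92 (SE 0.19) and TGM2 by 4.59 (SE 0.52). RXRG rose by 4.11 (SE 0.62). DHRS9, a retinol dehydrogenase, was at 0 in CP and at 125 in CM through its transcript ENST00000412271.1, at least 41.3-fold higher. CYP26B1, another enzyme that degrades retinoic acid, rose from 4.36 to 141 through ENST00000412253.1, at the transition where CYP26A1 fell. It was picked out here after its values were seen.

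In the UBE2B-/- lines, 6 genes of the wider list were higher in line 1 (2.18% of all transcripts tested) and 5 in line 2 (2.46%), with 0 lower in each (1.72% and 1.53%). CYP26B1 and MEIS2 were among those higher in both. CYP26B1 ENST00000001146.6 was at 131 in wild-type CMs and at 932 and 919 in the mutant lines, log2 changes of 2.83 and 2.81 (SE 0.65). The CYP26B1 transcript that rose from CP to CM, ENST00000412253.1, did not give the call in either line. A rise of CYP26B1 as a whole is therefore not shown. MEIS2 ENST00000559561.5 had a wild-type level of 0.598 and levels of 181 and 291 in the lines. The MEIS2 transcript that rose from CP to CM, ENST00000424352.6, reached 1366 in CM in that comparison. It was not the transcript that gave the call in either line, so a rise of MEIS2 as a whole is not shown. RDH11 and NR2F2 were called in line 1, and RARRES2 in line 2.

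**Figure D4:**
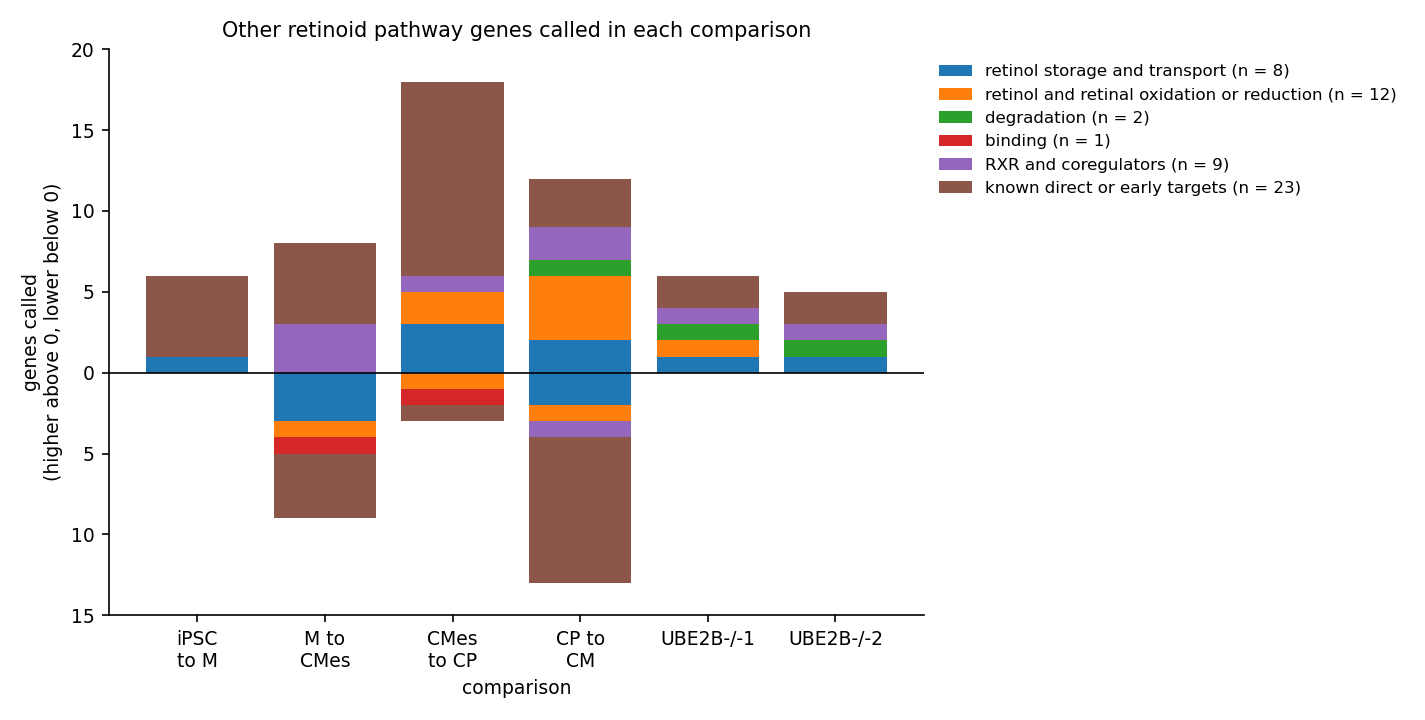
Number of genes of the wider retinoid list called higher (above 0) or lower (below 0) in each of the 6 comparisons, stacked by sublist with the number of genes in each in brackets, 1 transcript per gene. Targets make up 12 of the 18 genes that rose to CP and 9 of the 13 that fell to CM, and in both mutant lines no gene is below 0.

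Every call above rests on a normal distribution with 3 libraries per group. Read against a t distribution on 4 degrees of freedom for the stages or 6 for the lines, 0 member transcripts passed in any of the 6 comparisons. That reading leaves out what the shared variance estimate adds. The share of all transcripts that pass it is not given, so the count says nothing on the members in particular.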

How the data were processed

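RNA-seq of PGP1 cells was analysed in 21 libraries, 15 wild-type and 6 of UBE2B-/- CMs, grouped by the sample labels. Per the study's methods, the FASTX-Toolkit removed poor reads, Kallisto estimated transcript counts on hg38, Sleuth's Wald test compared groups and BiomaRt gave gene names. The authors deposited 6 result tables with p-values, q-values and variance scores. Changes, SEs and mean levels were deposited on the natural log scale, which the authors took after adding 0.5 to normalized estimated counts. The deposited tables list only q-values up to 0.05. They hold 0 columns of per-sample values, so depth per library is unknown and precision is the SE of the authors' fit. These columns are the authors' own comparisons, and they are the only measurements in the files.

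In Python 3.11.15 (pandas 2.3.3, scipy 1.17.1, matplotlib 3.10.9), changes were converted to log2, group levels were recovered from change and mean, and the number of tested transcripts from p-value, rank and q-value. The SE and p-value identities held on every listed transcript. Stage levels were put on the scale of the CP to CM table by median offsets over transcripts with at least 50 estimated counts. Both mutant lines share 1 fit of 9 libraries; the difference between lines has the SE of 1 line, and their mean 0.866 times it. Where only 1 line was listed, the change of the other line was solved from the variances, which leaves 2 values. The floor for groups at 0 was 3 counts per library, and floors and intervals of that kind cover counting error only. The scripts were tested on simulated data.

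All listed transcripts of the 9 genes are named, and a member gene was counted when any of its transcripts was called. In the wider list and the marker lists, the listed transcript with the highest mean stood for its gene. Of the wider list, up to 8 called genes per comparison with the largest absolute z may be named. No member transcript was listed at all 4 transitions, so no genes of like pattern were sought. The 19 transcript identifiers matched GENCODE release 44 with their versions. The members and lists were chosen with earlier results of these data known. Alternatives were other fold and q-value limits, a t distribution, each transcript's own residual variance, other offsets, sums over transcripts and other motif spacings. Some genes of the wider list are not reported here by name.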

Additional observations from a re-analysis of the deposited data

How the results depend on the processing

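With a q-value limit of 0.01, the called member transcripts were 1 at the transition to M, 6 at that to CMes, 1 in UBE2B-/-1 and 0 in UBE2B-/-2, in place of 3, 11, 4 and 4. With a t distribution on the residual degrees of freedom, 0 were called in each of the 6 comparisons, in place of 3, 11, 10, 13, 4 and 4; this distribution leaves out what the shared variance estimate adds. Summing the listed STRA6 transcripts from CP to CM gave a log2 change of 3.58 in place of 2.32. The other alternatives, on the fold limit, the residual variance, the offsets, the mean of both lines and the motif spacing, kept the calling results within 1.5 times and the values within the replicate spread. No paired analysis was possible because the tables hold no values of single libraries. For the same reason no replicate could be left out in turn, and 1 library could carry a change of a low transcript with a wide SE, such as CRABP1 in the mutant lines. Depth limits the transcripts at levels near 0.5, whose changes depend on the added 0.5.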
